A study of Mus musculus with 6 samples.

Results

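The genes described here are 9 regulators at the start and at the end of the interferon response, measured in endothelial cells (EC) of mouse lung. They were chosen by name: the transcription factors Stat2, Irf9, Irf1 and Irf7, and the nucleic acid sensors Ddx58, Ifih1, Dhx58, Tlr3 and Zbp1. All 9 were in the deposited expression table, out of 12623 genes in all. The 6 libraries came from EC of C57BL/6N mice, 3 from infant mice in the second postnatal week and 3 from young adult mice in about the third month of life, with no treatment and no altered allele in the labels. Each library was described as an independent biological replicate. Living cells with CD31 and CD34 and without PTPRC, LYVE1, PDPN and LY76 were collected by flow cytometry, a sort meant to keep blood EC and to leave out leukocytes, lymphatic EC and erythroid cells. Values are RPKM, in which reads are divided by transcript length in kilobases and by the library's mapped reads in units of 1000000, so levels of different genes can be set side by side. The table gives no read counts.

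Cells recognise foreign or misplaced nucleic acid with dedicated receptors. RIG-I (Ddx58) and MDA5 (Ifih1) detect double-stranded RNA in the cytosol and signal through MAVS, LGP2 (Dhx58) is a relative of both that lacks their signalling domains and modulates them, TLR3 detects double-stranded RNA in endosomes, and ZBP1 binds Z-form nucleic acid and can start necroptosis through RIPK3 and MLKL. Interferons made in response signal through their receptors and Janus kinases to STAT2, which works with IRF9 in the complex ISGF3. ISGF3 binds the interferon-stimulated response element (ISRE), whereas STAT dimers bind the gamma-activated site (GAS). IRF1 and IRF7 are themselves interferon-inducible activators, IRF1 opposed by IRF2 at shared sites and IRF7 related to the constitutively made IRF3. Most of the sensors are interferon-inducible too, so the pathway raises its own detectors. EC line the vessels through which viruses and immune cells reach the lung, and they express this machinery without being immune cells.

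To show where these regulatory letters stand in the genes themselves, start-site windows of RefSeq on the build GRCm38.p6 were searched for the ISRE core (GAAA, any 2 bases, GAAA, which reads TTTC, any 2 bases, TTTC on the other strand) and for the GAS letters (TTC, any 3 bases, GAA, which read the same on both strands). A window ran from 250 bases before a transcription start to 50 bases after it, and 7 of the 9 genes had 1 or 2 windows. Of the 9 windows of these 7 genes, 3 held the ISRE core, those of Stat2, Ifih1 and Ddx58, and 1 of Irf1 held the GAS letters. Over all genes 3.44% and 8.3% of 32851 such windows held them, so the single GAS match is close to its share over all genes. Neither set of letters was found in the windows of Irf7, Irf9 and Tlr3. The 250 bases before the starts of Stat2 (chr10:128270248-128270497, plus strand) and Irf1 (chr11:53769764-53770013, plus strand) are printed 5′ to 3′ with the match in capitals. For Ifih1 (chr2:62646206-62646233, minus strand) and Ddx58 (chr4:40239804-40239833, minus strand) the match lay just after the start and only the match with its close surroundings is shown.
Stat2: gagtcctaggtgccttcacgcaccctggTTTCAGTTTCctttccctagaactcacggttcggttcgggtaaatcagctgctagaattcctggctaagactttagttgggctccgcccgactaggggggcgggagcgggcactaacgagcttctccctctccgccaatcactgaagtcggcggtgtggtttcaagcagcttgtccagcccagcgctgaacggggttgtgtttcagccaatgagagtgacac
Irf1: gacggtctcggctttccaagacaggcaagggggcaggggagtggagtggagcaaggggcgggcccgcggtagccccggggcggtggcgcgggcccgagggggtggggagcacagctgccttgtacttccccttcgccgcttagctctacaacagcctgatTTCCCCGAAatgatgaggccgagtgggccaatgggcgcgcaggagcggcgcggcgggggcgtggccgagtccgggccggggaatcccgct
Ifih1: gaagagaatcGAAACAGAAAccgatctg
Ddx58: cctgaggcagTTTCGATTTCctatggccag
The match began 222 bases upstream of the start in Stat2, 90 bases upstream in Irf1, at base 33 after the start in Ifih1 and at base 3 after it in Ddx58. A match of letters is a description of the sequence and was not tested for binding.

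A few facts of the libraries stand beside every result. Infant replicate 2 stood apart from the other infant libraries: its log2 values correlated at 0.963 and 0.964 with infant replicates 1 and 3, which correlated at 0.987 with each other, and at 0.949 to 0.963 with the young adult libraries. Of the antigens of the sort, Pecam1 (CD31) was at 309.8 to 512.6 RPKM in infant EC against 573.7 to 657.8 RPKM in young adult EC, and Cd34 was at 422.7 to 500.6 against 254.4 to 354.8 RPKM, lower in young adult EC without overlap (log2 fold change -0.64, limma adjusted p = 0.0301, under the fold threshold). The summed RPKM of 16 endothelial markers was 4068 to 5902 against 6234 to 6970. Of the 16, 13 were higher and 3 lower in sign in young adult EC, and 9 were higher and 1 lower without overlap. Markers of other cells were higher in the infant libraries. All 10 fibroblast markers were lower in young adult EC without overlap, with sums of 331.9 to 1293 against 11.4 to 25.1 RPKM. So were all 10 mural markers (70.1 to 238.1 against 12.1 to 16.5 RPKM) and all 7 erythroid markers measured. All 9 epithelial markers measured were lower in sign, 5 of them without overlap. By the rule given in the next paragraph, 9 fibroblast, 9 mural, 7 erythroid and 4 epithelial markers were called lower. Of the endothelial markers 2 were called higher, Vwf and Tek. Among 15 leukocyte markers 14 were lower and 1 higher in sign in young adult EC, 9 were lower without overlap, and 6 were called lower. Over all genes, 27.1% were lower without overlap. The sums of the 15 leukocyte markers overlapped at 333.5 to 528.7 and 141.1 to 558 RPKM. Lyz2 made up most of these sums, and without it those of the other 14 were 58.2 to 159.1 RPKM in infant EC and 6.8 to 42.5 RPKM in young adult EC, without overlap. Ptprc, the pan-leukocyte marker, was at 4.2, 3.0 and 7.0 RPKM in infant EC against 0.2, 1.0 and 1.8 RPKM in young adult EC, and no leukocyte, fibroblast or mural marker measured was at 0 in all young adult libraries. In bulk RNA, fewer cells of a type and less RNA per cell cannot be told apart. The study's methods name female mice. Yet the Y-linked Ddx3y was at 16.5 to 21.9 RPKM in all 3 infant libraries and listed at 0 in all 3 young adult libraries. Xist, which is made in female cells, was at 7.6 to 8.7 RPKM in infant EC against 12.5 to 15.6 RPKM in young adult EC. Whether the infant libraries mixed both sexes was not tested. Age and sex therefore cannot be told apart in any result given here. The part of cell makeup in these results was not tested.

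Regulators of the interferon response were more abundant in young adult EC. Of the 9 genes, 8 rose and none fell: Stat2, Irf9, Irf1, Irf7, Ddx58, Ifih1, Dhx58 and Zbp1. A gene was called higher where limma's moderated test, adjusted over 12458 genes, gave an adjusted p under 0.05 and the log2 fold change of RPKM + 1, a scale that understates the change of low genes, was above the fold threshold of 0.81. By this rule 3.33% of all genes tested were called higher and 8.1% lower. By the adjusted p alone the same 8 passed, against 9.26% of all genes higher in young adult EC. The median log2 fold change of the 9 genes was 1.15, against -0.07 over all genes. In the same 8 genes all 3 young adult libraries lay above all 3 infant libraries, which was true of 16.4% of all genes. Tlr3 was the exception on both counts.

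**Figure D1:**
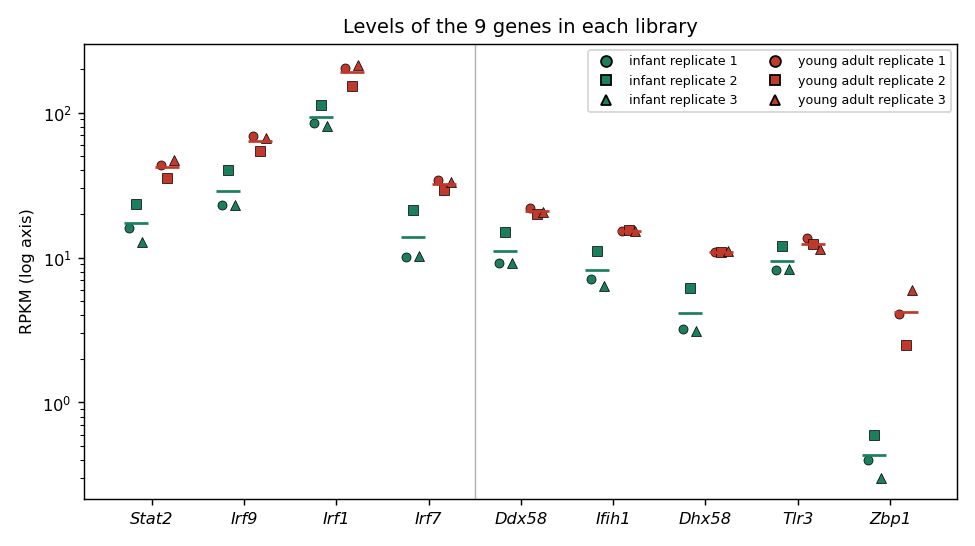
RPKM of the 9 genes on a log axis in each of the 6 libraries. Green symbols are infant and red symbols young adult libraries, symbol shapes give the replicate number, horizontal lines are group means, and the vertical line divides transcription factors from sensors. The young adult symbols lie above all infant symbols except for Tlr3, and infant replicate 2 (green square) is the highest infant library for each gene.

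The components of ISGF3 that belong to the chosen genes are Stat2 and Irf9. Stat2 (chromosome 10, 128270498 to 128292853, GRCm38.p6), which supplies the transactivation domain of the complex, was at 16.0, 23.3 and 12.9 RPKM in infant EC against 43.5, 35.3 and 46.9 RPKM in young adult EC. The groups were separate, and the mean went from 17.4 ± 5.34 to 41.9 ± 5.96 RPKM (SD, n = 3 each), 2.41-fold. The log2 fold change was 1.25 ± 0.21 (SE, limma adjusted p = 0.00683). Irf9 (chromosome 14, 55603985 to 55610030), the DNA-binding subunit, was at 23.2, 40.2 and 22.9 RPKM in infant EC against 69.1, 54.4 and 66.6 RPKM in young adult EC. It was 2.20-fold higher in young adult EC, with a log2 fold change of 1.15 ± 0.22 (limma adjusted p = 0.0107).

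Irf1 (chromosome 11, 53770014 to 53778374), an activator induced by both interferon types and by inflammatory cytokines, was the most abundant of the 9 genes in every library. Its level was 85.0, 113.6 and 80.5 RPKM in infant EC against 204.7, 153.9 and 214.4 RPKM in young adult EC. The lowest young adult library was 1.35-fold above the highest infant library. The mean went from 93.0 ± 18.0 to 191 ± 32.5 RPKM (SD, n = 3 each), and the log2 fold change was 1.03 ± 0.18 (SE, limma adjusted p = 0.00864). Irf2, which occupies the same sites and mostly represses, was at 29.0, 45.9 and 32.8 RPKM in infant EC against 36.4, 37.4 and 37.4 RPKM in young adult EC and was not called, with a log2 fold change of 0.07 ± 0.16. The ratio of Irf1 to Irf2 was 2.45 to 2.93 in infant EC against 4.12 to 5.73 in young adult EC, without overlap. The log2 ratio was higher by 0.97 (exact two-sided permutation test, p = 0.1, adjusted p = 0.15 over 3 ratios), where 0.1 is the smallest p that 3 against 3 libraries can give.

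Irf7 (chromosome 7, 141263183 to 141266499), the inducible amplifier of type I interferon production, was at 10.1, 21.4 and 10.2 RPKM in infant EC against 34.2, 29.1 and 33.0 RPKM in young adult EC. Infant replicate 2 had about double the level of the other infant libraries and still lay below every young adult library. The mean went from 13.9 ± 6.50 to 32.1 ± 2.67 RPKM, and the log2 fold change was 1.23 ± 0.26 (limma adjusted p = 0.0152). Irf3, its constitutive relative, was at 16.4 to 22.9 RPKM in infant EC against 20.1 to 25 RPKM in young adult EC and was not called (log2 fold change 0.25 ± 0.14). Irf7 was below Irf3 in all 3 infant libraries (ratio 0.54 to 0.93) and above it in all 3 young adult libraries (1.16 to 1.70). The log2 ratio was higher by 1.03 in young adult EC (exact two-sided permutation test, p = 0.1, adjusted p = 0.15 over 3 ratios).

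The 3 RIG-I-like receptors all rose. Ddx58 (RIG-I, chromosome 4, 40203777 to 40239825) was at 9.1, 14.9 and 9.1 RPKM in infant EC against 22, 20.1 and 20.5 RPKM in young adult EC, and Ifih1 (MDA5, chromosome 2, 62595618 to 62646255) at 7.1, 11.1 and 6.4 against 15.3, 15.5 and 15.3 RPKM. Neither gene's groups overlapped, and the young adult libraries differed little from each other. The log2 fold changes were 0.90 ± 0.18 for Ddx58 (limma adjusted p = 0.0126) and 0.87 ± 0.18 for Ifih1 (limma adjusted p = 0.0135), both close to the fold threshold. Dhx58 (LGP2, chromosome 11, 100694884 to 100704271) was at 3.2, 6.2 and 3.1 RPKM in infant EC against 11.0, 10.9 and 11.1 RPKM in young adult EC. It changed more than its relatives in size, 2.64-fold against 1.89-fold for Ddx58 and 1.87-fold for Ifih1, with a log2 fold change of 1.27 ± 0.21 (limma adjusted p = 0.00672).

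Ifih1 and Ddx58 kept nearly the same proportion at both ages. The ratio of Ifih1 to Ddx58 was 0.70 to 0.78 in infant EC against 0.70 to 0.77 in young adult EC, and the log2 ratio differed by -0.01 (exact two-sided permutation test, p = 0.8, adjusted p = 0.8), which does not show that the ratio was equal. Dhx58 made up 16.5 to 19.3% of the summed RPKM of the 3 receptors in infant EC against 22.8 to 23.7% in young adult EC, without overlap. The shares of the other two were correspondingly smaller in young adult EC, at 43.2 to 45.6% against 46.3 to 48.9% for Ddx58 and 31.7 to 33.3% against 34.4 to 36.6% for Ifih1. The shares were looked at after the values were seen and were not tested.

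Zbp1 (chromosome 2, 173206612 to 173218959) had the largest ratio of young adult to infant means of the 9 and was the least abundant at both ages. It was at 0.4, 0.6 and 0.3 RPKM in infant EC against 4.1, 2.5 and 6.0 RPKM in young adult EC. The groups were far apart, with the lowest young adult library 4.17-fold above the highest infant library. The ratio of the means was 9.69, and the log2 fold change was 1.81 ± 0.24 (SE, limma adjusted p = 0.00335). The infant values are a few rounding steps of 0.1 RPKM above 0, so the ratio is imprecise, and with a pseudocount of 5 in place of 1 the log2 fold change was 0.74 and the call was lost. Of the necroptosis genes on which ZBP1 acts, Mlkl, the pore-forming executioner, rose by a log2 fold change of 0.92 (limma adjusted p = 0.0031), from 8.0, 9.1 and 6.8 to 17.1, 15.9 and 14.6 RPKM. Ripk3, the kinase that ZBP1 binds, had a log2 fold change of 0.62 (limma adjusted p = 0.0159) and was not called because it was under the fold threshold, and Ripk1 (0.02) and Casp8 (0.37) did not pass the test.

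Tlr3 (chromosome 8, 45395665 to 45411075), the endosomal receptor, was at 8.2, 12 and 8.3 RPKM in infant EC against 13.6, 12.5 and 11.4 RPKM in young adult EC. Infant replicate 2 lay above young adult replicate 3, so the groups overlapped. The mean went from 9.50 ± 2.17 to 12.5 ± 1.10 RPKM, and the log2 fold change of 0.38 ± 0.15 did not pass the test (limma adjusted p = 0.102). Without infant replicate 2 it was 0.54 with an adjusted p of 0.00733, still under the fold threshold. Its direction turned when libraries were rescaled to the mean log2 RPKM of the 16 endothelial markers, where the log2 fold change was -0.07.

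**Figure D2:**
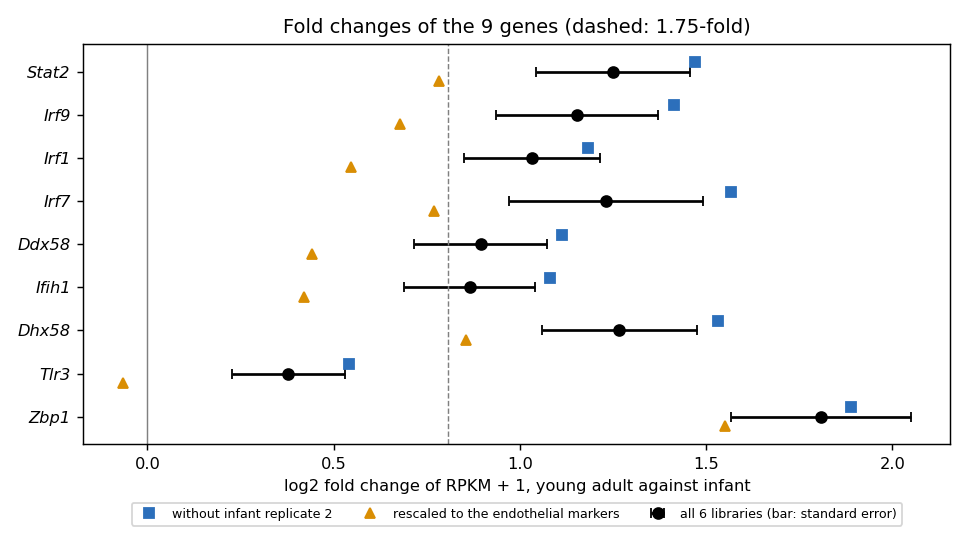
Log2 fold change of RPKM + 1, young adult against infant, for the 9 genes. Black points and bars are the fit to all 6 libraries with its standard error, blue squares the fit without infant replicate 2, orange triangles the fit after rescaling to the endothelial markers, and the dashed line is the fold threshold at 0.81. Each gene is further from 0 without infant replicate 2 and nearer to 0 after the rescaling, where Tlr3 falls below 0 at -0.07.

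The calls of the 8 genes were not equally firm. Stat2, Irf1, Dhx58 and Zbp1 were called in all 6 fits that each left out 1 library, and Irf9 in 5 of them, its adjusted p reaching 0.0506 without young adult replicate 1. Irf7, Ddx58 and Ifih1 were called in 2 of 6, without infant replicate 2 or young adult replicate 3, and lost the call without infant replicate 1, infant replicate 3, young adult replicate 1 or young adult replicate 2. Leaving out infant replicate 1 left 5 genes called (2.52% of all genes were called higher in that fit), and leaving out infant replicate 3 also left 5 (2.71%). In the fit that dropped young adult replicate 1 the count was 4 (2.64%), and in that which dropped young adult replicate 2 it was 5 (2.54%). Rescaling to the endothelial markers, chosen after seeing the data, moved the median of all genes from -0.07 to -0.48 and left 2 of the 9 called, Dhx58 and Zbp1, with 1.5% of all genes called higher. These markers include genes that differed by age themselves, Vwf and Tek called higher and Cd34 lower without overlap. Taken relative to the median of all genes, the median of the 9 was 1.22 as deposited and 1.15 after that rescaling, and Tlr3 was at 0.45 and 0.41. Higher genes made up 29.1% of all calls as deposited, 46.5% after quantile normalization and 7.35% after the endothelial rescaling. Rescaling without the globin genes left 6 called (Ddx58 and Ifih1 lost), a pseudocount of 5 left 5, and limma's treat, which tests the excess over the fold threshold, called 0 of the 9, of which 3 had an unadjusted p under 0.05. Of all 12458 genes, 344 were called higher without the globin genes, 240 with the pseudocount of 5 and 52 with treat. With treat, 693 of all genes had an unadjusted p under 0.05.

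Infant replicate 2 was the highest infant library for all 9 genes. Placed between the mean of infant replicates 1 and 3 (0%) and the young adult mean (100%) on the log2(RPKM + 1) scale, it stood at a median of 55.0%, from 13% for Zbp1 and 38.3% for Irf1 to 64.2% for Irf7 and 90.6% for Tlr3. Over the 415 genes called higher in young adult EC the median position was 36.6%, and in 353 of them infant replicate 2 was the highest infant library. These 415 include 8 of the 9 genes. A high infant replicate 2 widens the infant spread and works against a call, so the medians are not compared on equal terms. Over the 1009 genes called lower the position was 44.1%. The same library had the lowest fibroblast sum among infant libraries, 331.9 RPKM against 906.6 and 1293 RPKM, and the highest endothelial sum, 5902 against 4068 and 4370 RPKM. The part of these differences in its levels of the 9 genes was not tested. Without this library 8 of the 9 genes were called again, with 4.57% of all genes called higher, and the log2 fold changes were 1.47 for Stat2, 1.41 for Irf9, 1.18 for Irf1, 1.57 for Irf7, 1.11 for Ddx58, 1.08 for Ifih1, 1.53 for Dhx58 and 1.89 for Zbp1.

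**Figure D3:**
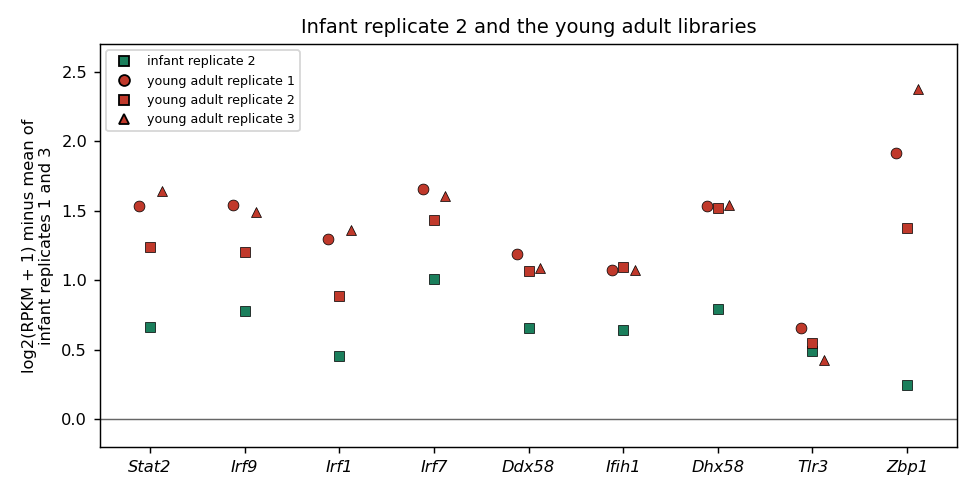
Position of infant replicate 2 (green squares) and the 3 young adult libraries (red symbols) for the 9 genes, as log2(RPKM + 1) minus the mean of infant replicates 1 and 3. Infant replicate 2 lies above 0 for each gene and below the young adult libraries for all but Tlr3, where it lies at 0.49 and young adult replicate 3 at 0.42.

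The order of the genes by level was nearly the same at both ages. In young adult EC it ran from Irf1 at 191 RPKM through Irf9 (63.4), Stat2 (41.9), Irf7 (32.1), Ddx58 (20.9), Ifih1 (15.4), Tlr3 (12.5) and Dhx58 (11.0) to Zbp1 (4.2 RPKM), with no overlap between neighbours over the 3 libraries. In infant EC the ranges of neighbours overlapped from Irf9 (28.8 RPKM) down through Stat2, Irf7, Ddx58, Tlr3 and Ifih1 (8.20 RPKM), whereas Irf1 stood above them and Dhx58 (4.17 RPKM) and Zbp1 (0.433 RPKM) below. Tlr3 and Ifih1 changed places between the ages, though their infant ranges overlapped.

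The table held 17 transcript rows for the 9 genes, 5 of which had several. The rows of a gene gave nearly the same ratio of young adult to infant means, 2.02 to 2.06 for the rows of Irf1, 2.30 to 2.33 for Irf7, 2.20 for Irf9, 1.87 for Ifih1 and 9.14 to 9.69 for Zbp1. Such rows share most of their exons and reads and are not independent measurements.

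Across the 6 libraries 7 of the 9 genes moved together. The Pearson correlation of each gene's log2(RPKM + 1) with the mean of the other 8, given as a description because the libraries share the 2 age groups, was 0.998 for Irf9, 0.994 for Ddx58 and Irf7, 0.992 for Dhx58, 0.987 for Stat2 and Ifih1 and 0.974 for Irf1. Zbp1 (0.909) and Tlr3 (0.895) followed the others less closely. Among 6976 other genes with a mean of at least 5 RPKM, the 10 whose pattern was most like the mean of the 9 were Ifit1 (0.999), Ceacam2, H2-K2, Adar, Ifit3, Xaf1, Usp18, Rpain, Parp9 and Ifi203 (0.997). Several of these are known interferon-induced genes, such as Ifit1 and Ifit3, which bind or sense viral RNA, and the ISG15 protease Usp18. Their likeness to genes that differ by age fixes their direction, so it is not a result. H2-K2, Ifit3 and Ifi203 belong to families of near-identical copies between which reads can be divided, so their single values are uncertain.

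Upstream of the transcription factors, no interferon receptor or Janus kinase measured was called. Of 8 measured genes of this list limma called none, and their median log2 fold change was 0.14. By adjusted p alone 1 passed, and 4 had an unadjusted p under 0.05, as did 5032 of all 12458 genes. Ifnar1, a chain of the type I interferon receptor, was at 21.3 to 26.1 RPKM in infant EC against 17.5 to 18.5 RPKM in young adult EC, a log2 fold change of -0.37 (limma adjusted p = 0.0334) that was under the fold threshold, opposite in sign to the factors it signals to. Jak1, a kinase of the same receptor, was at 0.31 (limma adjusted p = 0.0689), with all young adult libraries above all infant libraries, and Il10rb, a chain of the type III interferon receptor, was at 0.43 (limma adjusted p = 0.083). Ifnar2, the other chain of the type I interferon receptor, was at 0.34 (limma adjusted p = 0.109) and Tyk2, a kinase bound to that receptor, at -0.04. The interferon ligand genes and Ifnlr1 of the list were not analysed here.

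Other factors of both families mostly did not follow the 9. Of 10 further STAT and IRF genes analysed none was called by limma, and the log2 fold changes were -0.71 to 0.44. By adjusted p alone 2 passed, Stat3 higher and Irf4 lower, against 3176 of all 12458 genes. An unadjusted p under 0.05 was found for 4, against 5032 of all genes. Irf4, Irf5 and Irf8, factors typical of haematopoietic cells, had log2 fold changes of -0.71, -0.66 and -0.51 and were not called, at no more than 1.4 RPKM in any library. Stat3 was at 22.4 to 28.3 RPKM in infant EC against 34.3 to 35.1 RPKM in young adult EC, without overlap. Its log2 fold change of 0.44 (limma adjusted p = 0.0233), the highest of the 10, was under the fold threshold. Of 8 NF-kB genes none was called by limma (median 0.10), and 3 had an unadjusted p under 0.05, against the same 5032 of all 12458 genes. Nfkbia, the inhibitor induced by NF-kB itself, had a log2 fold change of 1.08 (limma adjusted p = 0.057) with overlapping groups, and was called under median-ratio scaling, array weights, the replicate block and without infant replicate 2. Rela, a subunit of NF-kB, was at 0.51 (limma adjusted p = 0.0188), under the fold threshold and without overlap. Rel, another subunit, went the other way at -0.61 (limma adjusted p = 0.0439), also under the fold threshold and without overlap.

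Among 12 other nucleic acid sensors 2 were called higher, against 3.33% of all genes, with a list median of 0.09. Ifi204, a DNA-binding protein of a family of near-identical copies, had a log2 fold change of 0.99 at levels of 0.3 to 0.7 RPKM in infant EC against 1.8 to 2.3 RPKM in young adult EC, and the helicase Ddx60 one of 0.85 at 4.0 to 8.2 and 9.7 to 11.5 RPKM. Ddx60 kept its call in 1 of the 6 fits that left out a library, that without infant replicate 2, whereas Ifi204 kept it in 6. Of 22 adaptors and kinases behind the sensors Mlkl was called higher and Ikbke lower, and the median was 0.06. By adjusted p alone 5 of the 22 passed. Without overlap 6 were higher and 1 lower, against 16.4% and 27.1% of all genes. Mavs, through which Ddx58 and Ifih1 signal, was at 20.0 to 24.1 RPKM in infant EC against 19.8 to 22.6 RPKM in young adult EC, a log2 fold change of -0.04, and Tmem173 (STING), the adaptor of cytosolic DNA sensing, was at -0.19. Tbk1, a kinase of IRF3 and IRF7, was at 20.6 to 26.9 RPKM in infant EC against 31.6 to 40.4 RPKM in young adult EC. Its groups did not overlap, and the log2 fold change of 0.66 (limma adjusted p = 0.0156) was under the fold threshold. Ikbke, another kinase of both, had a log2 fold change of -1.12 (limma adjusted p = 0.0286), from 2.0, 0.5 and 2.3 RPKM to 0.2, 0.1 and 0.1 RPKM. This call held in 1 of the 6 fits that left out a library, that without infant replicate 2, with an adjusted p of up to 0.104, and was lost with quantile normalization, whereas that of Mlkl held in 6.

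The list of negative regulators moved in both directions, with a median of -0.02. Of its 22 genes 3 were called higher and 2 lower, against 3.33% and 8.1% of all genes. Usp18, which removes ISG15 and blocks the type I receptor, was at 13.6, 37.0 and 14.3 RPKM in infant EC against 85.3, 58.7 and 80.7 RPKM in young adult EC, a log2 fold change of 1.88 (limma adjusted p = 0.0107). Samhd1, a dNTP hydrolase, and Adar, an RNA editor that keeps self RNA from the sensors, had log2 fold changes of 0.84 and 0.83. Ptpn6, a phosphatase abundant in haematopoietic cells, and Rnaseh2b, a subunit of RNase H2, were called lower at -1.21 and -0.88. Leaving out 1 library gave 0 to 5 calls in this list: 5 without infant replicate 2, 3 without young adult replicate 3, 2 without young adult replicate 2, 1 without infant replicate 1 or 3 and 0 without young adult replicate 1. Usp18 kept its call in 5 of these fits, Adar in 3, Rnaseh2b in 2, and Samhd1 and Ptpn6 in 1. Socs1 was not analysed here.

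Downstream, 23 of 27 interferon target genes were called higher and none lower, against 3.33% and 8.1% of all genes. The list's median was 1.45 on the log2 scale. Ifit3 (2.77), the immunity-related GTPase Igtp (2.59), the oligoadenylate synthetase Oas1a (2.47) and Nlrc5 (2.34), the transactivator of MHC class I genes, differed most. Ifit2, Rsad2, Cxcl10 and Dtx3l were not called, with log2 fold changes of 0.31, 0.10, 0.06 and 0.71. The summed RPKM of the list was 523.8, 972.4 and 591.3 in infant EC against 2139, 1866 and 2285 in young adult EC, and infant replicate 2 was again the highest infant library. Over the 7 lists that surround the 9 genes, 29 of 109 measured genes were called higher and 3 lower, and 23 of the 29 were in the target list. These lists were chosen with earlier results of these data known.

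**Figure D4:**
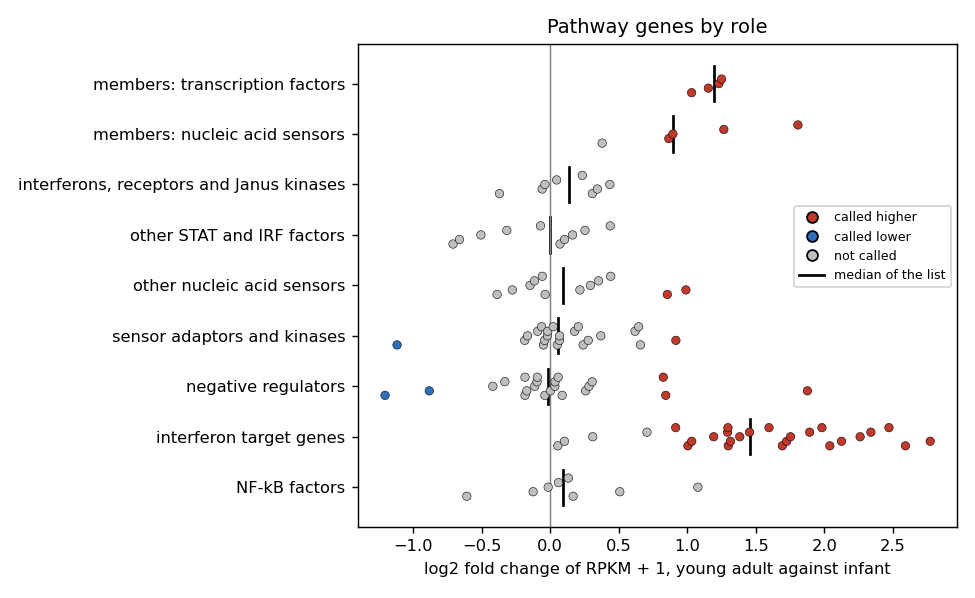
Log2 fold change of RPKM + 1, young adult against infant, for the 9 genes (upper rows) and the 7 lists around them. Each point is a gene, red where called higher, blue where called lower and grey where not called, and black bars are list medians. The medians of receptors, other sensors, adaptors and NF-kB genes lie between 0.06 and 0.14, those of other factors and negative regulators near 0 or just below it, and that of interferon target genes at 1.45.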

How the data were processed

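RNA of sorted lung EC was extracted with a PicoPure kit, amplified with the SMARTer Ultra Low kit and sequenced as paired ends on a HiSeq2000. Per the labels, the authors aligned with STAR to mm10 and used DESeq2, versions not given in the sources used here. The authors deposited RPKM values per RefSeq transcript, rounded to 1 decimal, and the program that computed them is not given in the sources used here. The table held 17241 rows and 0 columns of other values, and 24 rows had symbols turned into dates. The study gives an average transcriptome coverage but no read count per library, and whole reads could not be recovered from the values, so no counting error is attached to single values. Groups came from the sample titles.

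The transcript row with the highest mean stood for each gene. Genes with at least 1 RPKM in 1 or more libraries were tested on log2(RPKM + 1) in limma 3.58.1 (R 4.3.3) by lmFit and trended eBayes on age alone, and p-values were adjusted over all of them by Benjamini-Hochberg. This replaced the count test of the study. All 9 genes passed the filter. The script was tested on simulated data. Ratios were compared with exact permutation tests (scipy 1.17.1). Alternatives were other pseudocounts, filters, scalings, weights and tests, and leaving out each library. Named besides the 9 were up to 4 called genes per list with the largest change, partners on a set list, the 10 most alike genes and markers. Genes named outside this rule, namely Irf4, Irf5, Irf8, Stat3, Tbk1, Cd34, Vwf, Tek, Lyz2, Ripk1, Ripk3, Casp8, Jak1, Il10rb, Nfkbia, Rela, Rel, Ifit2, Rsad2, Cxcl10, Dtx3l, Ddx3y and Xist, were chosen after their values were seen. The genes and lists were chosen with earlier results of these data known.

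Gene positions and start-site windows came from RefSeq on GRCm38.p6. One gene of the surrounding lists is not reported here.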

Additional observations from a re-analysis of the deposited data

How the results depend on the processing

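Of 198 fold changes of the 9 genes under 22 alternatives, 197 were higher in young adult EC and 1 was reversed, Tlr3 at -0.066 after rescaling to the endothelial markers, an alternative chosen after seeing the data. Calls were lost in 32. Of the 9 genes, 5 were called with a pseudocount of 5 (Ddx58, Ifih1 and Zbp1 lost), 2 after rescaling to the endothelial markers and 0 with limma's treat, a test of the excess over the fold threshold, where 3 had an unadjusted p under 0.05 and the lowest adjusted p was 0.0861. With treat, 693 of all 12458 genes had an unadjusted p under 0.05. Leaving out 1 library gave 4 to 8 of the 9. Over all genes 1424 were called, against 578 with a pseudocount of 5, 176 with treat, 3176 by adjusted p only, 2545 after the endothelial rescaling and 842 to 1874 without 1 library. A pseudocount of 0.1 gave 1957. Of the 109 genes in the surrounding lists 32 were called, against 5 with treat, 21 with a pseudocount of 5 and 20 to 36 without 1 library. The log2 ratio of Ifih1 to Ddx58 ranged from -0.049 to 0.032 without 1 library, changing sign without infant replicate 1 or young adult replicate 1. The cause of these changes was not tested. Quantile normalization moved the median of all genes by 0.12 and the share of calls that were higher from 29.1% to 46.5%, and rescaling to the endothelial markers moved that share to 7.35%.

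Same-numbered libraries did not deviate together (correlations 0.028, -0.11 and -0.021), and libraries of different number gave -0.12 to 0.11. Such values from 3 libraries a group cannot show whether the replicate numbers pair the samples. With the replicate block 1371 genes were called, and 8 of the 9 genes, the same ones. With 3 libraries a group, no read counts and values rounded to 0.1 RPKM, Zbp1 in infant EC is measured least precisely.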
